A study of Mus musculus with 17 samples.

Results

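The genes described here encode 5 annexins (Anxa1, Anxa2, Anxa3, Anxa4 and Anxa5), 4 S100 proteins (S100a4, S100a6, S100a10 and S100a11) and galectin-1 (Lgals1). They are 10 of 37620 gene IDs in a table of expression values from mouse bone marrow-derived macrophages, and they were picked by name with their levels in these libraries already known. The differences between groups below are therefore descriptions of chosen genes and not independent evidence. All 10 were among the 12158 genes that passed the filter of at least 1 TPM (transcripts scaled for length and library) in at least 3 of 17 libraries.

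Annexins bind acidic phospholipids of membranes when calcium rises, and take part in membrane repair, vesicle traffic and the organisation of cortical actin. Most S100 proteins are small calcium sensors that work as dimers, several of them by holding an annexin. Galectin-1 binds β-galactosides on glycoproteins and leaves the cell without a signal peptide. Macrophages are known for abundant annexins and S100 proteins, which serve phagocytosis, migration, plasminogen activation at the cell surface and the end of an inflammatory response.

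Bone marrow cells of C57BL/6J mice, wild type or labelled Smad3 knockout, were grown for 7 days in 50 ng/ml of macrophage colony-stimulating factor (M-CSF), which turns them into macrophages. TGF-β1, a cytokine that signals in part through the transcription factor Smad3, was given at 5 ng/ml for 5 days, and the study asked what it changes on the way from macrophage to myofibroblast. There were 5 wild-type control libraries, 4 wild-type TGF-β1 libraries, 5 labelled-knockout control libraries and 3 labelled-knockout TGF-β1 libraries. All of them share the M-CSF culture. The treatment text stands on every sample, controls included, so it cannot be read from them how long control cells were kept. The design also mentions a sort of F4/80-positive cells by smooth muscle actin, but no label ties a library to a sort gate. Animals and cultures are not named, and a library may stand for 1 cell or for many, so p-values measure only the spread between libraries, which may be technical. In a library made from many cells, fewer cells of a type and less RNA per cell cannot be told apart.

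Smad3 RNA did not separate the genotypes as labelled, but it was low and was listed at 0 in 9 of 17 libraries. A level per gene also cannot show whether a transcript is intact, so these values do not settle the genotype. It reached 1 TPM in 2 of 5 wild-type and 1 of 5 labelled-knockout controls (log2 difference -1.16, two-sided exact permutation p = 0.365, smallest possible 0.00794). With TGF-β1 it reached 1 TPM in 2 of 3 labelled-knockout libraries and was listed at 0 in all 4 wild-type ones (log2 difference 2.47, exact permutation p = 0.0286, the smallest possible). The word "labelled" is kept for the knockout throughout, and each direction that rests on the genotype labels carries that doubt. All 8 macrophage markers were tested, and their summed level lay between 7699 and 43305 TPM in every library. Of 7 fibroblast markers 6 were listed at 0 everywhere and Col1a2 reached at most 0.02 TPM. In all 17 libraries 4 of 5 monocyte, 7 of 8 neutrophil and 5 of 6 lymphocyte markers were listed at 0. The remaining monocyte and neutrophil markers passed the filter, and the summed levels of these lists reached 5.58 and 7.74 TPM. Summed endothelial markers reached 27.1 TPM and mast cell and basophil markers 11.01 TPM, both in labelled-knockout controls. Dendritic cell markers reached 5.25 TPM. The libraries held 7269 to 10307 genes at 1 TPM or more. Of the genes with moderate levels (10 to 50 TPM), a median of 8.78% and up to 14.8% were listed at 0 in a library, and 6 of 17 libraries were above 10%. These 6 were wild-type controls 3, 4 and 5, wild-type TGF-β1 library 3, labelled-knockout control 2 and labelled-knockout TGF-β1 library 2. Leaving them out removes 3 of 5 wild-type controls and 1 library from each other group. Fits without them therefore have less power, and a call lost there does not show that a difference is absent.

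With TGF-β1, most of these genes were lower in both genotypes. Anxa2 was the only one of the 10 whose difference passed the test across all genes (limma, adjusted p under 0.05). It passed in wild type and in the mean over both genotypes but not in the labelled knockout, and not under every alternative setting. In wild type 9 of 10 had a negative log2 difference, with a median of -0.72, where 45.9% of all tested genes were negative and the median was 0.09. In the labelled knockout 8 of 10 were negative with a median of -0.62, against 46.7% and 0.07 over all tested genes. Without the 6 libraries above 10%, the negative counts were 9 and 7 of 10, with medians of -0.67 and -0.25. The 10 genes together held 1.44 ± 0.237% of all TPM in wild-type controls (SD, n = 5) and 1.01 ± 0.174% with TGF-β1 (n = 4), and 1.5 ± 0.316% (n = 5) and 1.20 ± 0.197% (n = 3) in the labelled knockout.

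**Figure D1:**
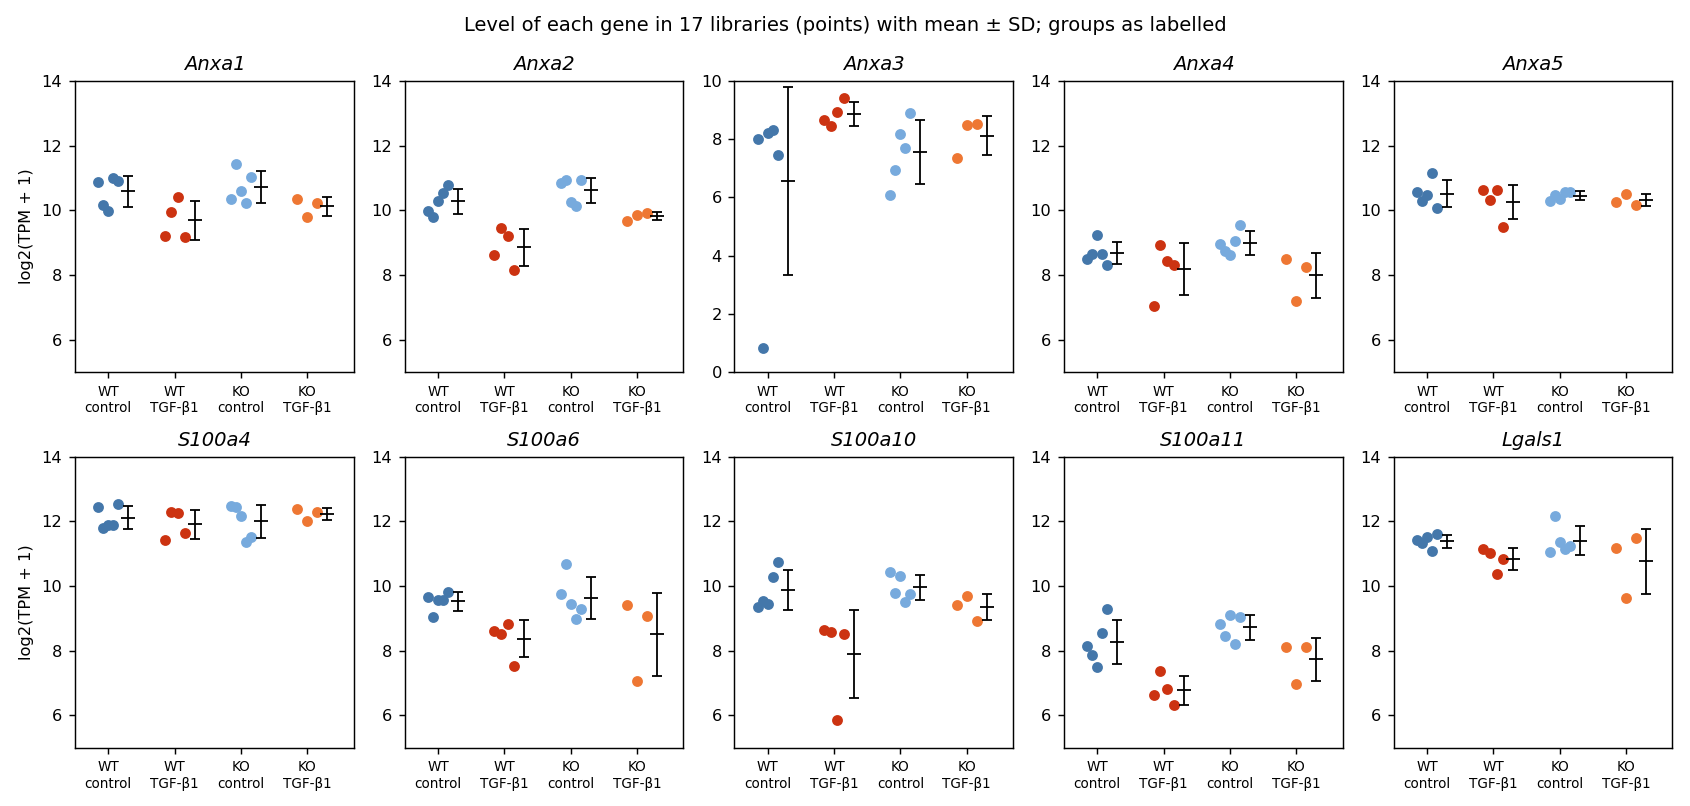
Level of each of the 10 genes as log2(TPM + 1) in the 17 libraries (points, coloured by labelled group; WT, wild type; KO, labelled Smad3 knockout), with the mean ± SD beside them. The wild-type TGF-β1 points of Anxa2, S100a6, S100a10 and S100a11 lie below every wild-type control point, 2 of the 4 S100a4 points do so, and the Anxa3 panel has its own vertical scale because 1 control library was at 0.76 TPM.

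Anxa2 (ENSMUSG00000032231, chromosome 9) encodes annexin A2, which at the cell surface gathers plasminogen and its activator and inside the cell links membranes to actin. It was at 1018, 884, 1255, 1470 and 1751 TPM in the wild-type controls and at 396, 694, 588 and 287 TPM with TGF-β1. Labelled-knockout controls were at 1857, 1942, 1232, 1124 and 1942 TPM and the treated libraries at 822, 922 and 976 TPM. Within each genotype every treated library was below every control library. In wild type Anxa2 fell from 1275 ± 348 to 491 ± 184 TPM, which is -1.41 ± 0.27 on the log2 scale (± SE; adjusted p = 0.0317 in limma). It was 1 of 22 genes called in that comparison (0.181% of those tested), 9 of them lower (0.074%). The labelled-knockout means were 1619 ± 406 and 906 ± 78.3 TPM (log2 -0.80 ± 0.30, adjusted p = 0.724), where 1 gene of 12158 was called (0.00823%). Taken as the mean over both genotypes the difference was -1.11 ± 0.20 (adjusted p = 0.0123), with 46 genes called (0.378%). That call was kept in all 17 fits without 1 library and lost with no filter (adjusted p = 0.0621), with the cell cycle covariate (0.113) and without the 6 libraries above 10% (-0.94, 0.290). It was also lost with a block by replicate number. The wild-type call was lost in 5 of 9 fits that left out 1 library (controls 3, 4 and 5, TGF-β1 libraries 1 and 4; adjusted p up to 0.102, log2 -1.61 to -1.18). Without the 6 libraries above 10%, which include 3 of the 5 wild-type controls, it was also lost (log2 -1.14, adjusted p = 0.353). The same held with no filter (0.107), with a covariate for detected genes (0.0503) and over the compared groups alone (0.205). With the cell cycle covariate and with the block by replicate number it was lost too.

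S100a10 (ENSMUSG00000041959, chromosome 3) encodes the light chain that joins a pair of annexin A2 molecules into a tetramer and itself offers a binding site to plasminogen. It was at 648, 743, 692, 1245 and 1729 TPM in the wild-type controls and at 401, 381, 57.0 and 368 TPM with TGF-β1. The labelled-knockout controls were at 1380, 874, 1258, 734 and 864 TPM and the treated libraries at 684, 830 and 483 TPM. The wild-type groups did not overlap, and in the labelled knockout the highest treated library lay above the lowest control. The log2 difference was -1.97 ± 0.46 in wild type (adjusted p = 0.0809) and -0.61 ± 0.50 in the labelled knockout (adjusted p = 0.927). The wild-type value rests in part on TGF-β1 library 3: without it the difference was -1.29 (adjusted p = 0.135), and without all 6 libraries above 10% it was -0.86 (adjusted p = 0.425). The labelled-knockout value was -0.40 without TGF-β1 library 3. The ratio of S100a10 to Anxa2 TPM was 0.773 ± 0.176 in wild-type controls, 0.735 ± 0.522 with TGF-β1, and 0.663 ± 0.239 and 0.742 ± 0.217 in the labelled-knockout groups. In wild-type TGF-β1 library 3 it was 0.0969, and in library 4 it was 1.28.

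S100a11 (ENSMUSG00000027907, chromosome 3) encodes a partner of annexins A1 and A2 that takes part in sealing membrane tears. Its wild-type controls were at 285, 231, 179, 371 and 621 TPM and its TGF-β1 libraries at 97.3, 163, 111 and 78.1 TPM. Controls of the labelled knockout were at 450, 352, 550, 296 and 530 TPM and the treated libraries at 277, 125 and 274 TPM. The groups did not overlap in either genotype, although the margin was small: 179 against 163 TPM in wild type and 296 against 277 TPM in the labelled knockout. The log2 differences were -1.50 ± 0.38 (adjusted p = 0.111) and -0.997 ± 0.41 (adjusted p = 0.775), and the mean over both genotypes was -1.25 ± 0.28 (adjusted p = 0.0573). That last value passed in 4 of 10 other settings (adjusted p from 0.0379 to 0.308 over all 10) and in 1 of 17 fits without 1 library (adjusted p from 0.0321 to 0.199). Without labelled-knockout TGF-β1 library 2, the labelled-knockout difference was -0.62.

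Anxa1 (ENSMUSG00000024659, chromosome 19) encodes annexin A1, a glucocorticoid-induced protein that ends inflammation through formyl peptide receptors. It was at 1876, 1149, 1004, 2065 and 1924 TPM in the wild-type controls and at 592, 979, 1369 and 583 TPM with TGF-β1. The labelled-knockout controls were at 1313, 2762, 1559, 1194 and 2100 TPM and the treated libraries at 1307, 892 and 1186 TPM. The groups overlapped in both genotypes, through TGF-β1 library 3 in wild type and library 1 in the labelled knockout. The log2 differences were -0.90 ± 0.30 (adjusted p = 0.304) and -0.61 ± 0.33 (adjusted p = 0.854).

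S100a6 (ENSMUSG00000001025, chromosome 3) encodes calcyclin, a calcium sensor found in dividing and moving cells. Its wild-type controls were at 804, 524, 754, 766 and 895 TPM, and all 4 TGF-β1 libraries were lower, at 394, 365, 453 and 183 TPM. The labelled-knockout controls were at 871, 1644, 695, 505 and 627 TPM and the treated libraries at 685, 132 and 533 TPM, which overlap. The log2 difference was -1.16 ± 0.42 in wild type (adjusted p = 0.344). It was -1.12 ± 0.46 in the labelled knockout (adjusted p = 0.766), and -0.39 there without TGF-β1 library 2.

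S100a4 (ENSMUSG00000001020, chromosome 3) encodes a regulator of non-muscle myosin and cell motility that is often used as a fibroblast marker and is also made by macrophages. It was at 5572, 3563, 3794, 3784 and 5951 TPM in the wild-type controls and at 2727, 5043, 4953 and 3166 TPM with TGF-β1. The labelled-knockout controls were at 5730, 5619, 4571, 2652 and 2932 TPM and the treated libraries at 5349, 4113 and 5013 TPM. All groups overlapped. The log2 difference was -0.21 ± 0.25 in wild type (adjusted p = 0.845), 0.23 ± 0.27 in the labelled knockout (adjusted p = 0.969) and 0.01 ± 0.18 as the mean of both (adjusted p = 0.989), and its sign in wild type and in the mean turned with the scaling. Leaving out single libraries moved it between -0.34 and -0.04 in wild type (lowest without TGF-β1 library 2, highest without library 1). In the labelled knockout it moved between 0.07 (without control 4) and 0.35 (without control 1). The ratio of S100a4 to Anxa2 TPM ran from 2.58 to 5.48 in wild-type controls and from 6.88 to 11.04 with TGF-β1. In the labelled knockout it ran from 1.51 to 3.71 and from 4.46 to 6.51. The denominator was itself wholly lower with TGF-β1 in both genotypes, so these ratios largely restate the Anxa2 values.

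Promoter windows from the RefSeq-based table (build GRCm38.p6, 250 bases before to 50 bases after each annotated start) were matched for 7 of the 10 genes, with 8 windows since Anxa4 has a pair of starts. Anxa3, S100a10 and Lgals1 had no entry. The windows of Anxa2 and S100a11, which were lower with TGF-β1 in every treated library of both genotypes, are printed with that of S100a4, whose groups overlapped in both genotypes. They lie at chr9:69453433-69453732, chr3:93520246-93520545 and chr3:90603520-90603819, all on the plus strand, and capitals mark every match to 6 motifs searched on both strands.
Anxa2: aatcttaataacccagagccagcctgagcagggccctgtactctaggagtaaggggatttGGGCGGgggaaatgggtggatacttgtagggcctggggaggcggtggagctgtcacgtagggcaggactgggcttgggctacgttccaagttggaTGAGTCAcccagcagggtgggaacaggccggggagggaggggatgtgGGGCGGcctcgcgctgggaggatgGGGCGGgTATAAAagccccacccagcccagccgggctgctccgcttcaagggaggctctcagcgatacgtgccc
S100a11: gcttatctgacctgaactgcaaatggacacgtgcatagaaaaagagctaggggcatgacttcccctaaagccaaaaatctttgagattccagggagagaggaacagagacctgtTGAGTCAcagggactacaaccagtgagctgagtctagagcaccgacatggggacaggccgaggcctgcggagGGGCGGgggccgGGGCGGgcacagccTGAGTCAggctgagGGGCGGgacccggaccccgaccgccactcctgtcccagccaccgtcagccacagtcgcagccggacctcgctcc
S100a4: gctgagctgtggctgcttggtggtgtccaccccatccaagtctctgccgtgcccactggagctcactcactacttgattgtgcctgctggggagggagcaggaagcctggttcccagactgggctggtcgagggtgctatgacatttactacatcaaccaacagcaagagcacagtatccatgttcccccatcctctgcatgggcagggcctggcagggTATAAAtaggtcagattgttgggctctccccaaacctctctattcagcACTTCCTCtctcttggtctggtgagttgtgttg

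The motifs, with the share of 32851 windows of the same length that hold each, were the TATA box TATAAA (13.6%), the AP-1 site TGANTCA (7.81%), the GC box GGGCGG (35.7%), the SMAD box CAGACA (21%), the PU.1-type core GAGGAAGT (3.2%) and the C/EBP-type site TTGCNNAA (10.8%). No matches of different motifs overlapped in the windows printed. The Anxa2 window held GC boxes at -190, -48 and -24, an AP-1 site at -95 and a TATA box at -17, counted in bases from the start to the first base of the match. The S100a11 window held AP-1 sites at -136 and -38 and GC boxes at -64, -52 and -24. The S100a4 window held a TATA box at -31 and, on the minus strand, a PU.1-type core at 18 in the first bases of the transcript. G and C made up 63.7%, 61.7% and 55.3% of the bases of Anxa2, S100a11 and S100a4, with 13, 15 and 2 CpG sites, against medians of 52.7% and 7 sites over all windows. Among the other windows, that of Anxa1 held a TATA box at -32 and a C/EBP-type site at -143, the windows of Anxa4 held 1 GC box in one and a SMAD box and a C/EBP-type site in the other, and those of Anxa5 and S100a6 held none of the 6. A match is a description of letters and not a site of binding.

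Anxa4 (ENSMUSG00000029994, chromosome 6) encodes annexin A4, which settles on membranes and lowers their mobility. Wild-type controls were at 360, 400, 602, 403 and 320 TPM and TGF-β1 libraries at 132, 487, 344 and 315 TPM, which overlap. Labelled-knockout controls were at 502, 424, 396, 530 and 751 TPM, above all 3 treated libraries at 360, 146 and 306 TPM. The log2 differences were -0.49 ± 0.36 (adjusted p = 0.714) and -1.0035 ± 0.39 (adjusted p = 0.75). In wild type the difference was -0.12 without TGF-β1 library 1 and -0.74 without library 2, and in the labelled knockout it was -0.61 without library 2.

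Anxa5 (ENSMUSG00000027712, chromosome 3) encodes annexin A5, known for binding phosphatidylserine exposed by dying cells. It was at 1519, 1258, 1416, 2301 and 1072 TPM in the wild-type controls and at 1567, 1268, 1584 and 714 TPM with TGF-β1, with log2 -0.26 ± 0.24 (adjusted p = 0.785). Its labelled-knockout levels were 1248, 1431, 1309, 1520 and 1526 TPM in controls and 1233, 1458 and 1143 TPM with TGF-β1, with log2 -0.14 ± 0.26 (adjusted p = 0.986). The groups overlapped in both genotypes, and the wild-type difference was 0.0038 without TGF-β1 library 4 and -0.09 without control library 4. The labelled-knockout difference was -0.06 without TGF-β1 library 3 and -0.24 without library 2.

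Anxa3 (ENSMUSG00000029484, chromosome 5) encodes an annexin of phagocyte granules. It was the member with a positive difference in both genotypes. It was at 256, 0.76, 293, 318 and 176 TPM in the wild-type controls and at 402, 353, 484 and 678 TPM with TGF-β1. Controls labelled knockout were at 66.9, 121, 290, 206 and 478 TPM and the treated libraries at 163, 360 and 366 TPM. All treated wild-type libraries lay above all controls, while the labelled-knockout groups overlapped. The log2 difference in wild type was 2.30 ± 1.07 (adjusted p = 0.497), and 0.86 without control library 2. In the labelled knockout it was 0.56 ± 1.17 (adjusted p = 0.987), and ran from 0.19 without control library 1 to 0.95 without TGF-β1 library 1.

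Lgals1 (ENSMUSG00000068220, chromosome 15) encodes galectin-1, a secreted lectin that dampens T cell and macrophage activation. It was at 2729, 2554, 2937, 2159 and 3127 TPM in the wild-type controls and at 2278, 2066, 1316 and 1829 TPM with TGF-β1. The labelled-knockout controls were at 2119, 4610, 2643, 2255 and 2440 TPM and the treated libraries at 2309, 785 and 2889 TPM. The groups overlapped in both genotypes. The log2 difference was -0.55 ± 0.30 in wild type (adjusted p = 0.582) and -0.63 ± 0.33 in the labelled knockout (adjusted p = 0.854), the latter -0.06 without TGF-β1 library 2 and -1.0005 without library 3.

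**Figure D2:**
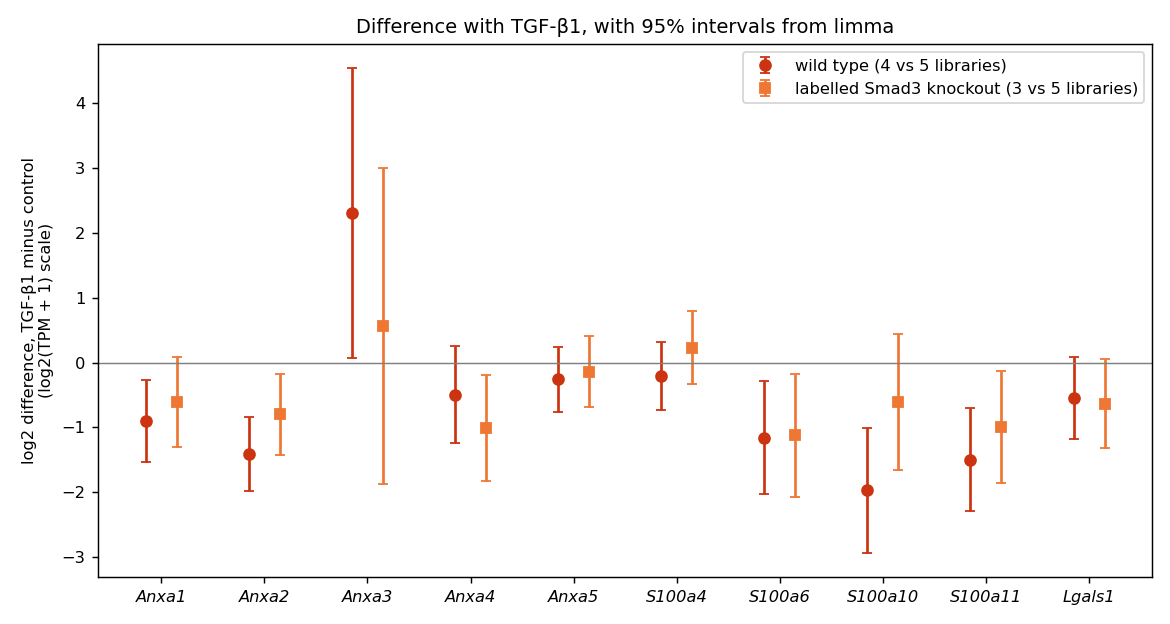
Log2 difference between TGF-β1 and control on the log2(TPM + 1) scale for each of the 10 genes, with 95% confidence intervals from the limma fit, in wild type (circles, 4 against 5 libraries) and in the labelled Smad3 knockout (squares, 3 against 5). The points of Anxa2 stand at -1.41 and -0.80 and those of S100a4 at -0.21 and 0.23, on either side of 0.

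Counting libraries that do not overlap, 4 of the 10 genes (Anxa2, S100a6, S100a10 and S100a11) were wholly lower with TGF-β1 in wild type and Anxa3 was wholly higher. Over all tested genes 0.987% were wholly lower and 1.8% wholly higher. In the labelled knockout Anxa2, Anxa4 and S100a11 were wholly lower, against 1.84% of all tested genes. These counts are read only as a description, because the genes were chosen with these levels known.

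The direct comparison of the TGF-β1 difference between genotypes (labelled knockout minus wild type) called none of the 10 genes in limma, and none had an unadjusted p under 0.05. Over all tested genes it called 0 (0%), with 569 at an unadjusted p under 0.05 (4.68%). S100a10 had the smallest p of the 10: the differences of -1.97 and -0.61 were apart by 1.36 ± 0.68 (unadjusted p = 0.0599, adjusted p = 0.997), by 0.68 without wild-type TGF-β1 library 3 and by 0.02 without the 6 libraries above 10%. Among the treated libraries, Anxa2 (287 to 694 TPM in wild type, 822 to 976 TPM in the labelled knockout) and S100a10 (57.0 to 401 and 483 to 830 TPM) were wholly higher in the labelled knockout, where 3.15% of all tested genes were. Their log2 differences were 0.96 ± 0.31 (adjusted p = 0.583) and 1.44 ± 0.52 (adjusted p = 0.743), the latter 0.76 without wild-type TGF-β1 library 3. No member was called there, against 19 of all genes (0.156%), and 3 of the 10 were higher at an unadjusted p under 0.05, as were 3.21% of all tested genes. Among the controls all 10 genes overlapped between genotypes, with log2 differences from -0.11 to 1.00 and adjusted p from 0.926 to 1, while 18 genes were called (0.148%) and 1.06% did not overlap. These genotype comparisons use the same libraries as the comparisons with TGF-β1 and are not separate evidence.

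Cell cycle genes moved with the treatment. The mean log2(TPM + 1) of 20 of them lay between 7.37 and 7.84 in wild-type TGF-β1 libraries and between 7.41 and 7.80 in labelled-knockout ones, while controls spread from 3.43 to 7.33 and from 4.71 to 7.25. The controls nearest to the treated libraries were wild-type controls 2 and 5, at 7.04 and 7.33, and labelled-knockout control 1, at 7.25. Their Anxa2 levels were 884, 1751 and 1857 TPM and their S100a10 levels 743, 1729 and 1380 TPM. In both genes they were above the wild-type treated libraries. Wild-type control 2 lay within the range of the labelled-knockout treated libraries in both genes (Anxa2 822 to 976 TPM, S100a10 483 to 830 TPM). With the cell cycle mean as a covariate, the wild-type difference of Anxa2 was -1.53 (limma adjusted p = 0.0956) and that of S100a10 was -2.51 (adjusted p = 0.0864), while that of S100a4 was -0.32. Every treated library lay above every control on this mean, so the covariate cannot separate the treatment from the cell cycle. The part of the cell cycle in these differences was not tested.

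**Figure D3:**
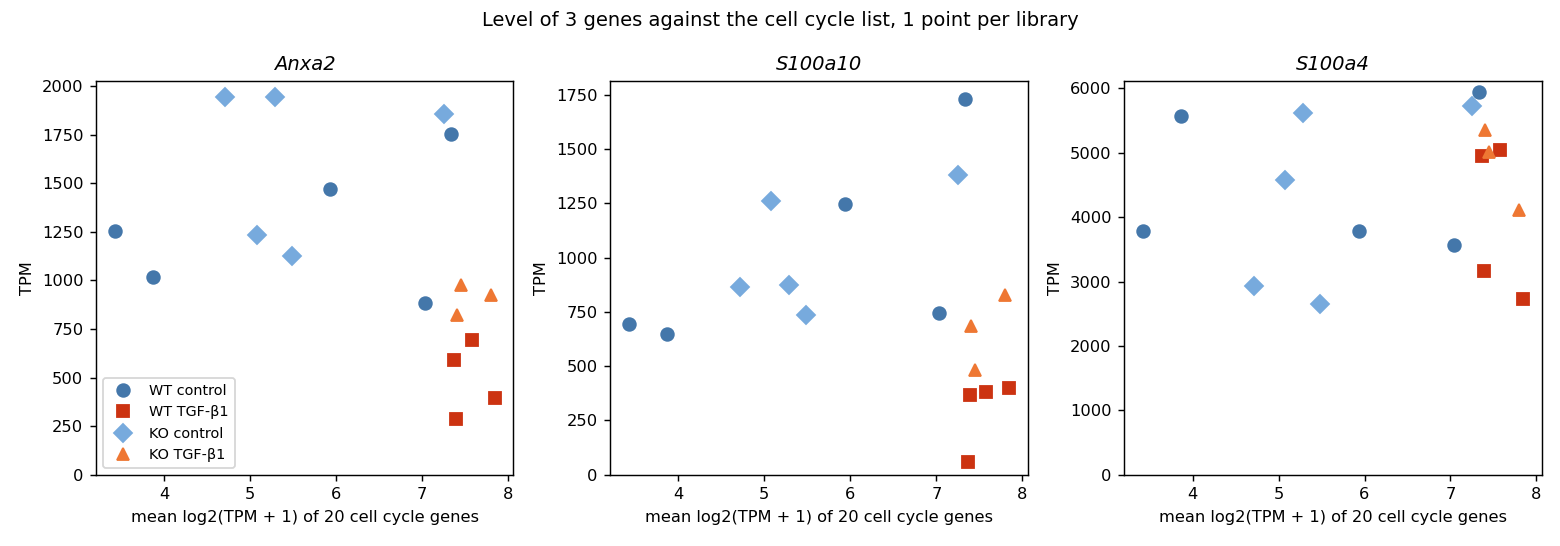
TPM of Anxa2, S100a10 and S100a4 in each of the 17 libraries against the mean log2(TPM + 1) of 20 cell cycle genes (WT, wild type; KO, labelled Smad3 knockout). All treated libraries lie between 7.37 and 7.84 on the horizontal axis, and the control libraries nearest to them there have Anxa2 levels of 884 to 1857 TPM.

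TPM is scaled by transcript length, so levels can be set side by side between genes. Averaged over the 17 libraries, S100a4 stood at 4384 TPM and above Lgals1 in all 17 libraries. It ranked 18th of 12158 genes. Lgals1, at 2414 TPM, was above Anxa1 in 15 libraries. Anxa1 (1403 TPM) and Anxa5 (1386 TPM) could not be ordered, with Anxa1 the higher in 8 of 17 libraries. Anxa2 followed at 1127 TPM, below Anxa5 in 13 libraries and above S100a10 (787 TPM) in 14. S100a6, at 637 TPM, was below S100a10 in 11 libraries and above Anxa4 (399 TPM) in 12. Anxa3, at 295 TPM, and S100a11, at 293 or 294 TPM, could not be ordered, with Anxa3 the higher in 7 libraries. The order was not the same in each group. By group mean, Anxa3 ranked last of the 10 in both control groups, and S100a11 was last in both TGF-β1 groups. In wild type with TGF-β1, S100a10 (302 TPM) ranked 9th, below S100a6, Anxa4 and Anxa3, and Anxa3 ranked 6th. In labelled-knockout controls Anxa2 (1619 TPM) stood above Anxa5 (1407 TPM).

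Likeness was measured as Spearman's correlation of log2(TPM + 1) over the 17 libraries among 7470 genes of at least 10 TPM on average. Libraries share their group and their quality, so these values are descriptive. The 3 genes most like Anxa2 were Szrd1 (0.87), S100a11 (0.85) and Plin2 (0.85). For S100a10 they were Vim, the intermediate filament of mesenchymal cells and macrophages (0.87), S100a11 (0.85) and Anxa2 (0.83). For S100a11 they were Anxa2, S100a10 and Szrd1 (0.84), so these 3 members appear in each other's lists in all but 1 direction. Anxa1 was most like Szrd1 (0.86), Serpinb6a and Gm17132 (both 0.83), and S100a6 was most like Rplp2, Rbx1 (both 0.83) and Cd300lb (0.81). The closest to S100a4 were Cab39l (0.82), Atpif1 (0.81) and Elovl5 (0.77). Those closest to Lgals1 were Ncdn (0.80), Ints5 (0.79) and Actg1 (0.77). Anxa3 was most like Ephx1 (0.84), Pros1 (0.79) and Ppt1 (0.77), Anxa4 most like Nsfl1c (0.84), Srm (0.81) and Polr1e (0.80), and Anxa5 most like Fer (0.80), Creld2 (0.79) and Alkbh1 (0.74).

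The likeness of Anxa2 and S100a10 lay mostly between groups: with the group means removed, the correlation went from 0.83 to 0.19. For Anxa2 and S100a11 it went from 0.85 to 0.52, and for S100a10 and S100a11 from 0.85 to 0.36. Anxa1 and Anxa2 stayed close, at 0.76 and 0.72, as did S100a6 and Lgals1, at 0.70 and 0.63. Anxa3 ran the other way from S100a6, at -0.63, and at -0.28 with group means removed.

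Of 12 other S100 genes 8 were listed at 0 in every library and 3 were tested, none of which was called. Of 13 S100 genes on chromosome 3, 6 were listed at 0 in all 17 libraries (S100a3, S100a5, S100a7a, S100a9, S100a14 and S100a16). S100a4, S100a6, S100a10 and S100a11 were the members of the cluster above 260.2 TPM on average, followed by S100a1 (260.2 TPM) and S100a13 (115 TPM). In the annotated order along the chromosome, S100a4 and S100a6 stand on either side of S100a5, which was listed at 0, and S100a11 and S100a10 end the row. S100a8, a neutrophil and monocyte alarmin, was listed at 0 in 13 of 17 libraries and reached 132 TPM in wild-type control 4. With TGF-β1 in wild type, S100a1 had a log2 difference of 0.64 and S100a13 one of -1.004 (adjusted p = 0.528). In the labelled knockout both had the opposite sign, at -0.28 and 0.25.

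**Figure D4:**
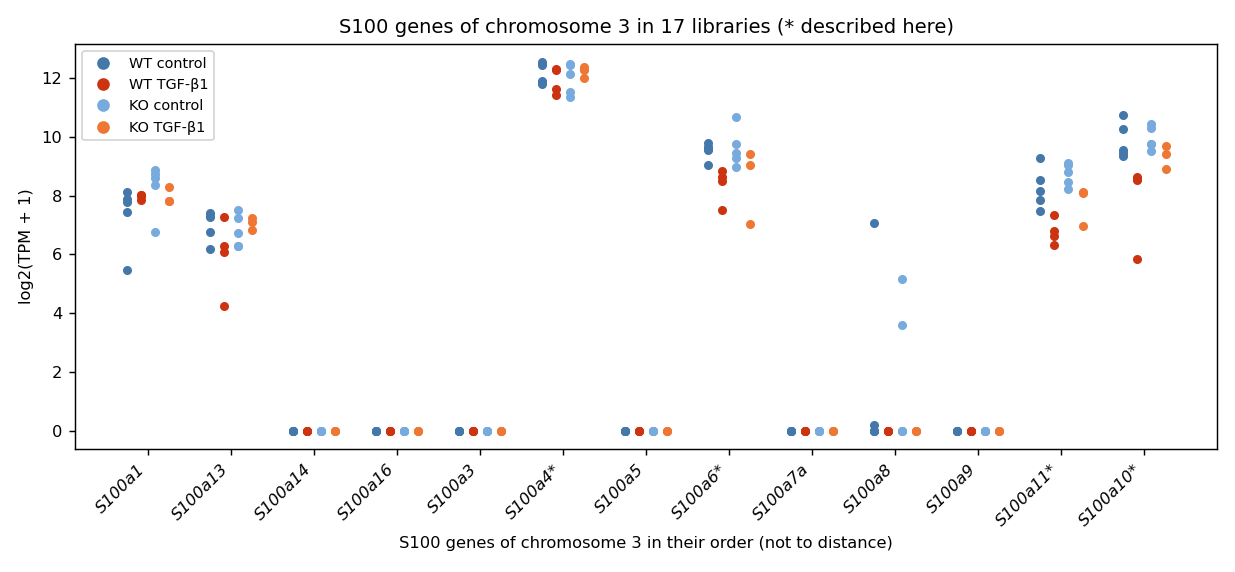
Level as log2(TPM + 1) of the 13 S100 genes of chromosome 3 in their annotated order, not to scale in distance, with 1 point per library coloured by labelled group and an asterisk at the 4 genes described here. Of the genes listed at 0 in all libraries, S100a14, S100a16 and S100a3 lie between S100a13 and S100a4, and S100a5 between S100a4 and S100a6. S100a7a and S100a9 lie on either side of S100a8, which was listed at 0 in 13 of the 17 libraries.

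Of the other annexins, 4 of 7 were tested and none was called in either genotype. Anxa6 (118 TPM on average) is the large annexin with a doubled core, and its log2 differences were -0.32 in wild type and 1.02 ± 0.46 in the labelled knockout (adjusted p = 0.818). Anxa7 (55.5 TPM), Anxa11 (18.5 TPM) and Anxa9 (5.62 TPM) were lower on average in wild type with TGF-β1 and were not called. Of the other galectins 3 of 7 in the table were tested. Lgals3, galectin-3, a lectin of activated macrophages, was at 12917, 28223, 15071, 25085 and 15986 TPM in wild-type controls and at 4023, 10347, 3395 and 3139 TPM with TGF-β1. These groups did not overlap, and the log2 difference was -2.02 ± 0.34 (limma adjusted p = 0.00846). The call was lost without TGF-β1 library 4 (-1.83, adjusted p = 0.0547), without the 6 libraries above 10% (-1.91, adjusted p = 0.203), with no filter (0.107) and over the compared groups alone (0.11). It was also lost with the block by replicate number. In the labelled knockout it was -0.74 ± 0.37 (adjusted p = 0.848), with libraries that overlapped, and moved to -0.32 without TGF-β1 library 2 and to -1.21 without library 1. Neither Lgals9 (238 TPM) nor Lgals8 (66.7 TPM) was called.

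Among 17 genes of annexin partners, membrane repair and the plasminogen system, 13 were tested and none was called; 9 had a negative difference in wild type, with a median of -0.81, and 8 in the labelled knockout, with a median of -0.24, where 45.9% and 46.7% of all tested genes were negative. Ahnak, a giant scaffold protein that binds the annexin A2 tetramer, was at 165, 162, 63.6, 27.2 and 187 TPM in wild-type controls and at 2.60, 16.9, 8.21 and 61.9 TPM with TGF-β1. The groups overlapped, and the difference was -2.82 ± 0.79 in wild type (adjusted p = 0.177) and -1.92 ± 0.86 in the labelled knockout (adjusted p = 0.814). Capn2, the large subunit of a calpain that acts in membrane repair, differed by -1.45 ± 0.44 in wild type, with no overlap (adjusted p = 0.226). In the labelled knockout it differed by -0.84 ± 0.47, with overlap (adjusted p = 0.854). Plau, urokinase, differed by -2.96 ± 1.23 in wild type (adjusted p = 0.439) and by -2.70 ± 1.34 in the labelled knockout (adjusted p = 0.845). Pdcd6 (161 TPM on average), the highest of this list, differed by -0.68 in wild type and -0.02 in the labelled knockout. Pdcd6ip, next at 155 TPM, differed by 0.86 and 0.38, and Plaur (81.5 TPM) by -0.81 and 0.41.

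Of 11 receptors and ligands, 8 were tested and none was called. The formyl peptide receptors Fpr1 and Fpr2, through which annexin A1 acts, were listed at 0 in all 17 libraries. Lamp2, a lysosomal glycoprotein that carries galectin ligands, had differences of 1.03 ± 0.31 in wild type (adjusted p = 0.221) and 0.99 ± 0.33 in the labelled knockout (adjusted p = 0.665), while Lamp1, at 1365 TPM on average, differed by 0.01 and -0.10. None of the 9 other cytosolic calcium-binding proteins was called, and 6 of them had a positive difference in wild type, with a median of 0.36, but 4 in the labelled knockout, with a median of -0.02. Capg and Lcp1, which cap and bundle actin, differed by 0.21 and 0.36 in wild type and by -0.03 and 0.83 in the labelled knockout. Across these lists the members tested were 0 called of 4 annexins, 0 of 3 S100 genes, 1 of 3 galectins, 0 of 13 partners, 0 of 8 receptors and ligands and 0 of 9 calcium-binding proteins in wild type, against 0.181% of all tested genes.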

How the data were processed

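Gene expression was measured by RNA sequencing of cDNA made with the SMART-seq2 protocol, per the labels' protocols. The authors deposited TPM per Ensembl gene ID in 1 table. FastQC, Trim Galore, RSEM and the mouse build mm9 are named in the submitters' processing notes, and the sources used here give neither version nor setting. The TPM columns have equal sums and hold no counts, so depth is unknown and no counting interval is given.

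Of 37620 IDs, 32897 were matched to a symbol. Values were tested as log2(TPM + 1) for genes that reached 1 TPM in 3 or more of the 17 libraries, with limma 3.58.1 in R 4.3.3 (4 groups in 1 fit, empirical Bayes with a trend, Benjamini-Hochberg over 12158 genes, called at an adjusted p under 0.05). A fold on this scale understates the change of low genes. Smad3 was compared by exact permutation. The fit was run on simulated independent values with changes larger than those of the 10 genes. That run does not show how the fit performs on differences of their size. The 10 genes and all lists were chosen with earlier results of these data known. Other genes were named by level, up to 6 per list, and likeness by the 3 highest correlations. Some results under this rule are not reported here. RSEM shares reads between near-identical copies, which can move values of genes with pseudogenes. Replicate numbers are not stated to mark a shared animal, culture or day, so they were not used as pairs. Same-numbered libraries of different groups did not deviate together (22 pairs, correlations -0.08 to 0.02). Alternatives were other pseudocounts, filters and scalings, covariates, a block by number, the compared groups alone, and leaving out each library. The fit without the 6 libraries above 10% was chosen after seeing the data.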

Additional observations from a re-analysis of the deposited data

Results flagged for a closer look

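Of 30 sets of values (10 genes in the 3 groups of 4 or 5 libraries), 3 held 1 library far from the others of its group by Dixon's criterion, and chance flags about 1 in 20 sets. Anxa3 was at 0.76 TPM in wild-type control 2, where the other controls were at 176 to 318 TPM. S100a10 was at 57.0 TPM in wild-type TGF-β1 library 3, where the others were at 368 to 401 TPM. Lgals1 was at 4610 TPM in labelled-knockout control 2, where the others were at 2119 to 2643 TPM. The latter 2 libraries are among the 6 above 10% for moderate genes listed at 0, and what set these values apart was not tested.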

How the results depend on the processing

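In wild type the count of members called with TGF-β1 was 1 (Anxa2) and became 0 with no filter on low values, with a covariate for detected genes, with one for the cell cycle mean, in the fit over the compared groups alone and without the 6 libraries above 10%, and 0 to 1 when single libraries were left out. The adjusted p of Anxa2 in wild type was 0.107 with no filter, 0.0503 with detected genes, 0.0956 with the cell cycle mean, 0.205 over the compared groups alone and 0.353 without the 6 libraries. As the mean of both genotypes the count was 1, and it became 2 (Anxa2 and S100a11) with a pseudocount of 10, a filter at 5 TPM, upper-quartile scaling and quantile normalization. It became 0 with no filter, the cell cycle covariate and without the 6 libraries, and 1 to 2 when single libraries were left out. In the other 4 comparisons of the 10 genes the count was 0 under every alternative run. With the replicate block the count was 0 in wild type and 0 in the mean, where it had been 1 in both. Anxa2 was then at -1.31 (limma adjusted p = 0.103) and -1.05 (adjusted p = 0.0615), and Lgals3 in wild type at -2.02 (adjusted p = 0.0544). Same-numbered libraries were not correlated (none of 22 pairs over 0.1), but this cannot show that they share no animal, culture or day.

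The wild-type difference of S100a4 was 0.034 with quantile normalization. Its mean over both genotypes was -0.10 with upper-quartile scaling, -0.013 with detected genes, -0.10 with the cell cycle mean and -0.059 with the replicate block, and ran from -0.067 to 0.093 when single libraries were left out. Anxa5 in wild type ran from -0.38 to 0.0038 when single libraries were left out, and Lgals1 in the labelled knockout was 0.13 without the 6 libraries. Smad3 between genotype labels with TGF-β1 ran from 1.43 to 3.69 when single libraries were left out, where no p under 0.0667 was possible, and between controls from -1.55 to -0.54. Quantile normalization moved the median of all genes by -0.15 in wild type and by -0.13 in the labelled knockout, and upper-quartile scaling moved it by -0.10 in the latter. The fit over the compared groups alone was not run for the 2 comparisons that use all 4 groups. The cause of these moves was not tested. Groups of 3 to 5 libraries limit the precision.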
